A study of Mus musculus with 31 samples.

Results

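The genes that control whether the liver makes or burns glucose were followed across livers of 31 BXD strains. Of 8 genes chosen by name (Pck1, G6pc, Fbp1, Tat, Ppargc1a, Pklr, Slc2a2 and Foxo1), 7 had a probe, 1 each, among the 21765 probes with a value on every array, which stand for 15095 named genes. No probe was named for Tat, which is not analysed here. BXD/TyJ strains are recombinant inbred mice bred from C57BL/6J and DBA/2J, each homozygous at nearly every locus for an allele of one of these parents. Whole liver was taken from male mice of 8 weeks, RNA of 3 mice of a strain was pooled, and each pool was set on 1 two-colour glass array, in Alexa Fluor 647, against a single pool of liver RNA from 9 male C57BL/6J mice of the same age in Alexa Fluor 555. No other treatment or genotype was compared, and no array had its dyes exchanged. For the feeding state and the time of day, the sources used here give nothing.

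Values are deposited log ratios, read as log2 of BXD strain over C57BL/6J reference. That direction is likely, since red carried the strains and the tool used divides red by green, but neither it nor the log base is stated. Pooling leaves 1 value per strain, so a p-value over strains measures the spread between strains, and the spread of the C57BL/6J pool is left out. Any dye bias of a probe is part of its mean. In whole liver, fewer cells of a type and less RNA per cell cannot be told apart. A ratio of liver over liver holds no absolute level, so the tissue could not be checked by its defining markers. Of 13 hepatocyte marker genes measured, 4 were higher and 6 lower in the BXD strains than in the reference, beside 38.5% and 36.4% of all genes.

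A single probe stands for each gene, with no second probe to set beside it. Among the 902 genes that had exactly 2 probes on this array, the median r between the 2 probes over strains was 0.011, and 39 pairs (4.32%) had an r above 0.5. Their panel means shared a sign in 47.2% of these genes and had r = -0.056 across genes. On this array 1 probe of a gene thus told little of the other. Probe sequences were not at hand, so the targets of the probes could not be checked. Every value given under a gene name below is that of its probe, and may not be that of the gene. Arrays of strains 23, 28, 40 and 42 stood apart, with a median r to the other arrays between 0.06 and 0.37, against 0.57 to 0.79 for the other 27 arrays. The 2532 probes whose identifier is a multiple of 8, here called every-8th places, were shifted as a group, by -0.53 to -0.76 on the 27 arrays and by 0.01 to -0.26 on the 4, and none of the 7 probes described here lies at such a place. For the members and the genes named, most results that rest on these arrays or places are given with and without them. Counts per list and the marker scores use all arrays and no correction for place, unless stated.

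In fasting, the liver makes new glucose from lactate, glycerol and amino acids, and after a meal it turns glucose into pyruvate for storage as fat. Glucagon, acting through cyclic AMP and the factor CREB, and glucocorticoids switch on the gluconeogenic genes. Insulin switches them off, partly by removing FOXO1 from the nucleus, while glucose itself raises the pyruvate kinase gene through the factor ChREBP. Much of this control acts on transcription, so the promoters of these genes are textbook cases of hormone and nutrient response.

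Promoters of the 7 genes were searched for 8 short motifs known from such work, since the genes were compared for whether they move together. RefSeq (GRCm38.p6) gave 8 promoters of 300 bases, 250 before and 50 after the start of transcription, with 2 for Pklr. The 4 shown here are those that held a cyclic AMP, insulin or carbohydrate motif. Capitals mark every match, read 5′ to 3′ on the gene's own strand.
Pck1 (chr2:173152823-173153122, + strand): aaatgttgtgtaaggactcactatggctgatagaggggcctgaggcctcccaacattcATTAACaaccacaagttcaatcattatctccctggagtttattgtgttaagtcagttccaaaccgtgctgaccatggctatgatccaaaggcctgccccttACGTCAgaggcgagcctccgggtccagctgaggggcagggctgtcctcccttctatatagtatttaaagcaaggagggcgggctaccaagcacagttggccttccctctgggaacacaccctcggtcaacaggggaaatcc
Ppargc1a (chr5:51567676-51567975, - strand): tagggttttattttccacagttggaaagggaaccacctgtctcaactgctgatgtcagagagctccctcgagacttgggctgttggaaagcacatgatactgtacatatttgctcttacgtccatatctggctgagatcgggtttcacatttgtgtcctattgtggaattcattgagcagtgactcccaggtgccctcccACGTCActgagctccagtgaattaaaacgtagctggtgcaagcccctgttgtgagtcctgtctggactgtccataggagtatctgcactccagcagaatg
G6pc (chr11:101367466-101367765, + strand): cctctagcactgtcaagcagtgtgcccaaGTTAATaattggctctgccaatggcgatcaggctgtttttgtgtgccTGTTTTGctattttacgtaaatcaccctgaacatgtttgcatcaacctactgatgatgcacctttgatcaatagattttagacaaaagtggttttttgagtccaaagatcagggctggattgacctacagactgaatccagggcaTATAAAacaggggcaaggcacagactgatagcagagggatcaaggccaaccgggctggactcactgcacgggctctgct
Pklr, second start (chr3:89136373-89136672, + strand): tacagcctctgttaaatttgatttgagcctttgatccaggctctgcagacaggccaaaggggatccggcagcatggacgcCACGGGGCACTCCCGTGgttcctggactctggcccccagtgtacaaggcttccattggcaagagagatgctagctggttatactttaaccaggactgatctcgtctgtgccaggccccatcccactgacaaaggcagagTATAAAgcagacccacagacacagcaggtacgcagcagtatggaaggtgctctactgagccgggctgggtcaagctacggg

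The core of the cyclic AMP response element, TGACGT, stood as its reverse complement ACGTCA in Pck1 (first base at -91 from the start) and in Ppargc1a (-50), and was found in 7.51% of 32851 mouse promoters of the same length. G6pc held the core of the insulin response sequence, TGTTTTG, at -174, a match found in 6.28% of promoters. The second Pklr start held a carbohydrate response element, searched as CACGNG and CNCGTG with 5 bases between them, as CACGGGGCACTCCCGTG at -170. Only 15 of the 32851 promoters (0.0457%) held that element. The other capitals are the HNF1 core GTTAAT, at -192 in Pck1 (as ATTAAC) and at -221 in G6pc, which 7.1% of promoters held, and the TATA box TATAAA, at -29 in G6pc and -31 in Pklr, which 13.6% held. The E box CACGTG (7.15% of promoters), the glucocorticoid receptor core AGAACA (19% of promoters) and the HNF4 site core CAAAGTCCA (0.475% of promoters) matched no member promoter. All motifs were read on both strands, and no matches overlapped. The promoters of Fbp1, Slc2a2 and Foxo1 and the first Pklr start held none of these letters, which says nothing of the factors themselves.

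Across the panel, 3 of the 7 genes were higher in the BXD strains than in the C57BL/6J reference (Pck1, Slc2a2 and Foxo1), 2 were lower (G6pc and Fbp1) and 2 did not pass (Pklr and Ppargc1a). These are calls of limma's test of the mean over strains against 0, with a Benjamini-Hochberg adjusted p below 0.05 over all probes. By the same test 75.0% of all probes passed, 37.4% of them higher and 37.6% lower, so a passing mean was common on these arrays and 5 of 7 members is close to that share. Pck1, at an early step of gluconeogenesis, and G6pc, at its last, stood on opposite sides of the reference.

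**Figure D1:**
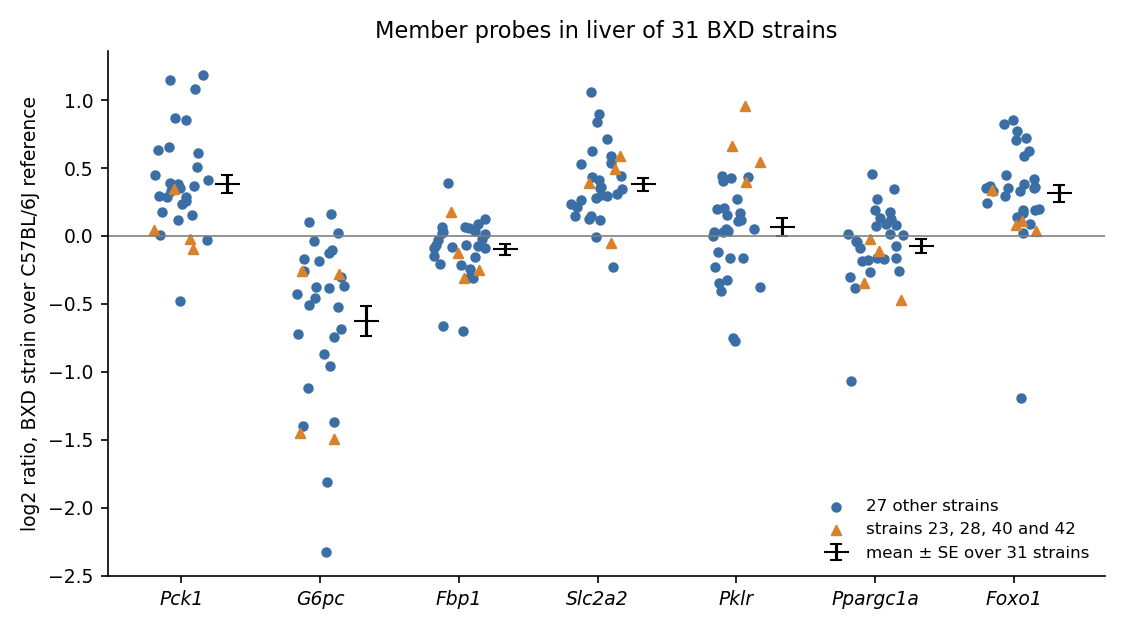
Log2 ratio of BXD strain over C57BL/6J reference (vertical axis) for each of the 7 probes (horizontal axis), with 1 point per strain. Orange triangles are strains 23, 28, 40 and 42, blue circles the other 27 strains, and the black bar with whiskers is the mean ± SE over 31 strains. G6pc reaches -2.32, while Foxo1 has 30 strains above 0 and 1 at -1.19.

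Pck1 encodes cytosolic phosphoenolpyruvate carboxykinase, which makes phosphoenolpyruvate from oxaloacetate and is a classic site of hormonal control. Its log2 ratio ran from -0.48 in strain 11 through a median of 0.35 to 1.19 in strain 33, with 1.15 in strain 27 and 27 of 31 strains above 0. Strain 11 lay apart at the low end, the next strain being -0.10. The mean was 0.38 ± 0.07 (SE, n = 31), or 1.30-fold, with a limma adjusted p of 2.64e-06.

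G6pc, the catalytic subunit of glucose-6-phosphatase, frees glucose from glucose-6-phosphate at the last step of both gluconeogenesis and glycogen breakdown. Its ratio ran from -2.32 in strain 38 and -1.81 in strain 8 through a median of -0.43 to 0.16 in strain 29. In 28 of 31 strains it lay below the reference, and in strain 38 it was 5.01-fold below. The mean was -0.63 ± 0.11 (SE, n = 31; limma adjusted p = 1.44e-06). Its SD over strains, 0.60, was the widest of the 7 probes and above that of 96.2% of all probes.

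Fbp1 is fructose-1,6-bisphosphatase, the enzyme between the other steps, which reverses phosphofructokinase. Values lay between -0.70 in strain 2 and 0.39 in strain 27, with -0.67 in strain 22 and a median of -0.07. The SD of 0.22 was the smallest of the 7. Its mean of -0.10 ± 0.04 (SE, n = 31) passed narrowly (limma adjusted p = 0.024), with 20 strains below 0 and 11 above. After each probe was centred on the median of probes with the same remainder of the identifier by 8, here called the place correction, the mean was -0.08 and missed the threshold (limma adjusted p = 0.0672).

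Slc2a2 encodes GLUT2, the low-affinity transporter that carries glucose across the hepatocyte membrane in both directions. Strain 14 had the lowest value, -0.23, the median was 0.35 and strain 22 had the highest, 1.06, with 28 of 31 strains above 0. The mean was 0.38 ± 0.05 (SE, n = 31; limma adjusted p = 1.71e-08).

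Pklr encodes the liver and red cell pyruvate kinase, the last enzyme of glycolysis. It ran from -0.78 in strain 5 and -0.75 in strain 15 through a median of 0.05 to 0.96 in strain 23. Of the highest strains, 23, 40 (0.66) and 28 (0.54) are among the 4 arrays that stood apart. The mean of 0.07 ± 0.07 (SE, n = 31) did not pass (limma adjusted p = 0.371), and without those 4 strains it was -0.02 over 27 strains. The spread between strains was nonetheless wide, with an SD of 0.39, above that of 85.0% of probes.

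Ppargc1a encodes the coactivator PGC-1α, which turns on Pck1 and G6pc in fasting. One strain, 18, stood at -1.07, while the next lowest was -0.47 in strain 42, the median was -0.05 and the highest 0.46 in strain 38. Its mean of -0.08 ± 0.05 (SE, n = 31) did not pass (limma adjusted p = 0.165). With the place correction it was -0.14 and passed (limma adjusted p = 0.011).

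Foxo1 is the transcription factor that insulin signalling, through AKT, keeps out of the nucleus. Of 31 strains, 30 lay above 0, from 0.02 in strain 18 to 0.86 in strain 21, with a median of 0.34 over all strains. Strain 27 alone lay below, at -1.19, a gap of 1.21 to the nearest strain and 2.28-fold below the reference. The mean was 0.31 ± 0.07 (SE, n = 31; limma adjusted p = 3.66e-05).

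In order of the panel mean, the genes ran Pck1, Slc2a2, Foxo1, Pklr, Ppargc1a, Fbp1 and G6pc. Were the ratio reference over strain instead, this order and every higher or lower call would reverse, Pck1 standing at 0.768-fold and G6pc at 1.54-fold. The first 3 differed by less than the sums of their SEs, as did Ppargc1a and Fbp1, and means of different probes were not tested against each other. Strains 14 and 40 were each among the 3 lowest or 3 highest strains of 4 genes, the most of any strain. Strain 14 was high for G6pc (0.02), Fbp1 (0.12) and Foxo1 (0.77) and low for Slc2a2 (-0.23). Strain 40, one of the arrays that stood apart, was high for Fbp1 (0.17) and Pklr (0.66) and low for Pck1 (-0.10) and Slc2a2 (-0.05). Strain 27 joined a high Pck1 (1.15) and the highest Fbp1 (0.39) with the lowest Foxo1 (-1.19).

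The 7 genes gave 21 pairs, and most pairs varied with little relation over strains. The median size of r was 0.14, with 8 pairs positive and 13 negative. An unadjusted permutation p below 0.05 was reached by 4 pairs for Pearson's r and by 6 for Spearman's rho. Each gene was also fitted against all other 21764 probes with limma, which gives a pair an adjusted p among the probes set on either gene. By that measure 2 pairs passed in 1 of their fits and 0 passed in both. For scale, among all probes set on Pklr 4.32% passed with a positive and 3.30% with a negative slope, among those set on Slc2a2 0.937% and 0.179%, on G6pc 0.694% and 2.17%, on Pck1 0.308% and 0.0505%, and on Foxo1 0.0184% and 0.0138%. Correlations are over 31 strains unless a number of strains is given, and strains share the C57BL/6J pool. Two-sided permutation p-values come from 100000 resamples.

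**Figure D2:**
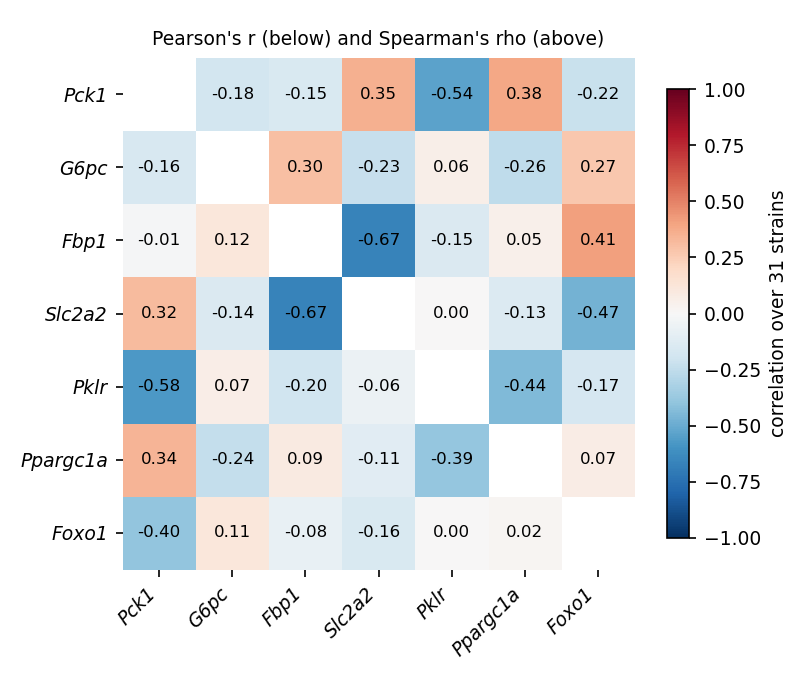
Correlation over 31 strains for each pair of the 7 probes, with Pearson's r below the diagonal and Spearman's rho above it. The colour runs from blue (-1) to red (1). The deepest blue cells are Fbp1 with Slc2a2 (r = -0.67) and Pck1 with Pklr (r = -0.58).

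Pck1 and Pklr, which drive opposite steps between pyruvate and phosphoenolpyruvate, ran against each other. Strains with the highest Pck1 values, 33 and 27, had Pklr at -0.33 and -0.35, and strain 15, with Pck1 at 0.87, had Pklr at -0.75. Strain 23, one of the arrays that stood apart, joined a low Pck1 value, -0.02, with the highest Pklr value, 0.96. Not all strains followed this. Strain 11, lowest for Pck1 at -0.48, had Pklr at 0.05, and strain 22 had Pck1 at 0.65 and Pklr at 0.43. Over all strains r was -0.58 (permutation p = 0.00064) and rho was -0.54 (permutation p = 0.00195). The limma adjusted p was 0.0147 among probes set on Pklr, where 7.63% of probes passed, and 0.0657 among probes set on Pck1, where 0.358% passed. Leaving out the 2 strains farthest from the Pck1 median, 33 and 11, gave r = -0.63, which passed both fits (limma adjusted p = 0.012 on Pklr and 0.0288 on Pck1). Without strains 23, 28, 40 and 42, r was -0.49 over 27 strains and passed neither fit (limma adjusted p = 0.166 on Pklr and 0.142 on Pck1).

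Fbp1 and Slc2a2 had the strongest relation of the 21 pairs. Strains 2 and 22, lowest for Fbp1 at -0.70 and -0.67, had Slc2a2 at 0.71 and 1.06, and strain 14, lowest for Slc2a2, had Fbp1 at 0.12. The r was -0.67 (permutation p = 6e-05) and rho -0.67 (permutation p = 0.0001). Of all probes, 0.0138% were as negative with Fbp1 and 0.023% were as negative with Slc2a2. The limma adjusted p was 0.0151 among probes set on Slc2a2, where 1.12% passed, and 0.398 among probes set on Fbp1, where 0 passed and 1379 had an unadjusted p below 0.05. Without strains 2 and 22 r was -0.53 and passed neither fit (limma adjusted p = 0.203 on Slc2a2 and 0.637 on Fbp1). Without the 4 arrays that stood apart r was -0.64 and still passed on Slc2a2 (limma adjusted p = 0.0153).

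**Figure D3:**
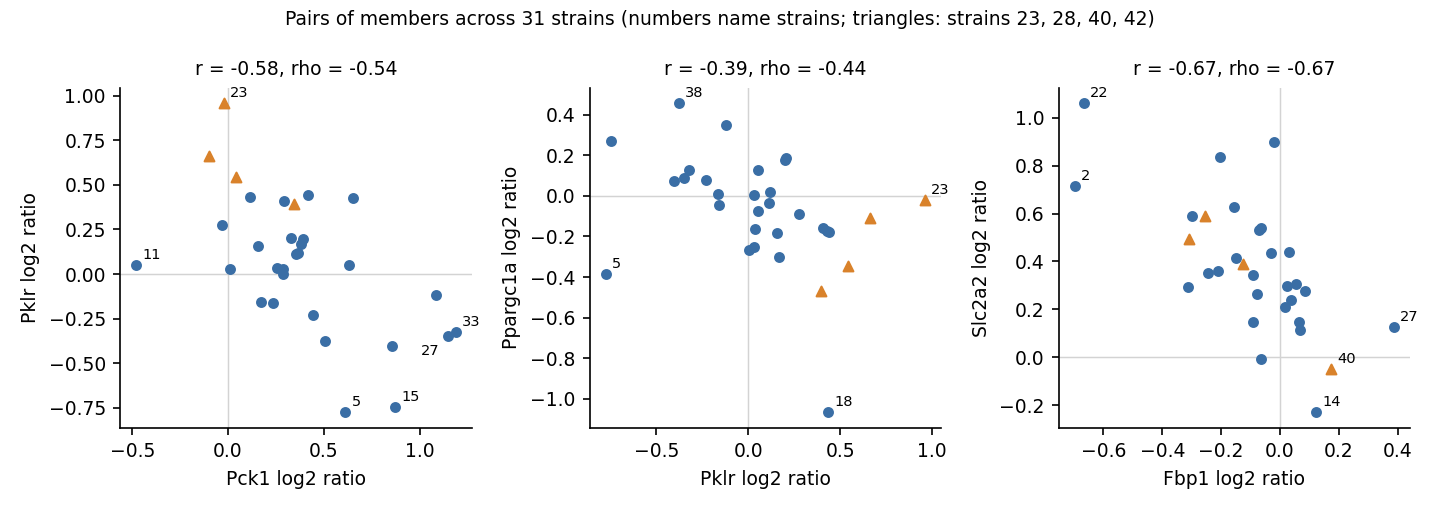
Log2 ratios of 2 probes against each other, with 1 point per strain, for Pck1 and Pklr, Pklr and Ppargc1a, and Fbp1 and Slc2a2. Orange triangles are strains 23, 28, 40 and 42, blue circles are the other 27, and numbers name strains. Each cloud slopes downward, and strain 18 lies alone at the bottom of the middle plot.

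Ppargc1a leaned the way of Pck1 and against Pklr, but neither relation passed over all probes in 31 strains. With Pklr, r was -0.39 (permutation p = 0.0334) and rho -0.44 (permutation p = 0.0146), the limma adjusted p being 0.148 on Pklr and 0.926 on Ppargc1a. Without strains 23 and 5, farthest from the Pklr median, r was -0.61 and passed among probes set on Pklr (limma adjusted p = 0.0448), though not among those set on Ppargc1a (limma adjusted p = 0.227). With Pck1, r was 0.34 (permutation p = 0.0601) and rho 0.38 (permutation p = 0.0341), and r was 0.43 without strains 33 and 11. Strain 18 moved neither, r being -0.37 with Pklr and 0.34 with Pck1 when it was left out. G6pc, the other gluconeogenic target of this coactivator, had r = -0.24 with Ppargc1a (permutation p = 0.196), with rho = -0.26 (permutation p = 0.16). Their r was -0.10 without strains 38 and 8, and -0.41 without strains 23, 28, 40 and 42. The latter passed neither fit (limma adjusted p = 0.161 on G6pc and 0.442 on Ppargc1a).

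Pck1 and G6pc, which share their main hormones, had no relation past the threshold over strains, with r = -0.16 (permutation p = 0.38), rho = -0.18 (permutation p = 0.326) and r = -0.15 without strains 33 and 11. Strains 38 and 8, lowest for G6pc, had Pck1 at 0.51 and 0.29. Pck1 and Slc2a2 had r = 0.32 (permutation p = 0.0838), rho = 0.35 (permutation p = 0.0536) and r = 0.31 without those strains.

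The relations of Foxo1 turned on strain 27. With Pck1, r was -0.40 (permutation p = 0.0319) and rho -0.22 (permutation p = 0.232), and r was -0.49 without strains 33 and 11 but -0.17 without strain 27. With Fbp1, r was -0.08 (permutation p = 0.647) while rho was 0.41 (permutation p = 0.0219), and r was 0.41 without strain 27 but -0.14 without strains 2 and 22. With Slc2a2, r was -0.16 (permutation p = 0.391) and rho -0.47 (permutation p = 0.0081), with r = -0.45 without strain 27 and -0.06 without strains 22 and 14. In the other 30 strains, r thus had the sign and about the size of the rho over all strains in both pairs. The choice to leave out strain 27 was made after its value was seen. Slc2a2, Foxo1 and Pklr all lie on mouse chromosome 3, and over all strains their pairs had r between -0.16 and 0.00. When strain 27 was left out, r was -0.45 for Slc2a2 with Foxo1 and -0.24 for Pklr with Foxo1.

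The number of probes that followed a gene over strains differed widely. At a limma adjusted p below 0.05, 1660 of 21764 probes (7.63%) varied with Pklr, 624 (2.87%) with G6pc, 243 (1.12%) with Slc2a2, 78 (0.358%) with Pck1, 7 (0.0322%) with Foxo1, 1 (0.00459%) with Ppargc1a and 0 with Fbp1. Without strains 23, 28, 40 and 42, the count for Pklr was 51, that for G6pc 1413 and that for Slc2a2 1295. By rank the order was another one, with 949 probes for Foxo1, 709 for Slc2a2, 436 for Pklr, 306 for Pck1, 69 for G6pc and 0 for Fbp1 and Ppargc1a (2656 and 1505 at an unadjusted p below 0.05). Pklr had r = 0.54 with the shift of the every-8th probes of an array, and -0.15 over the 27 other strains. Over those 27 strains every other member had a larger size of r with this shift. It was 0.60 for Slc2a2, -0.49 for G6pc, 0.40 for Pck1, -0.36 for Fbp1, 0.255 for Ppargc1a and -0.22 for Foxo1. Over all strains the r of these genes with the shift lay between -0.22 and 0.10. The r of Pklr with an array's median correlation to the others was -0.54. Whether these array properties had a part in the relations of Pklr or of the other members was not tested.

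For each gene, the 3 named probes with the highest r over 31 strains were taken. They were picked for that likeness, so only the adjusted p over all probes is given. Pck1 was nearest to Cebpb, the gene of C/EBPβ, a factor known to bind the Pck1 promoter, then to Cldn3, a tight junction claudin, and Dio1, the deiodinase that activates thyroid hormone. Cebpb ran from -0.01 in strain 40 through a median of 0.76 to 1.70 in strain 33, the strain that was also highest for Pck1 and for Dio1 (0.90). The r values were 0.78, 0.76 and 0.75 (limma adjusted p = 0.00163, 0.00163 and 0.00422), with rho of 0.82, 0.84 and 0.77. They kept r between 0.72 and 0.75 without the 4 arrays that stood apart.

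**Figure D4:**
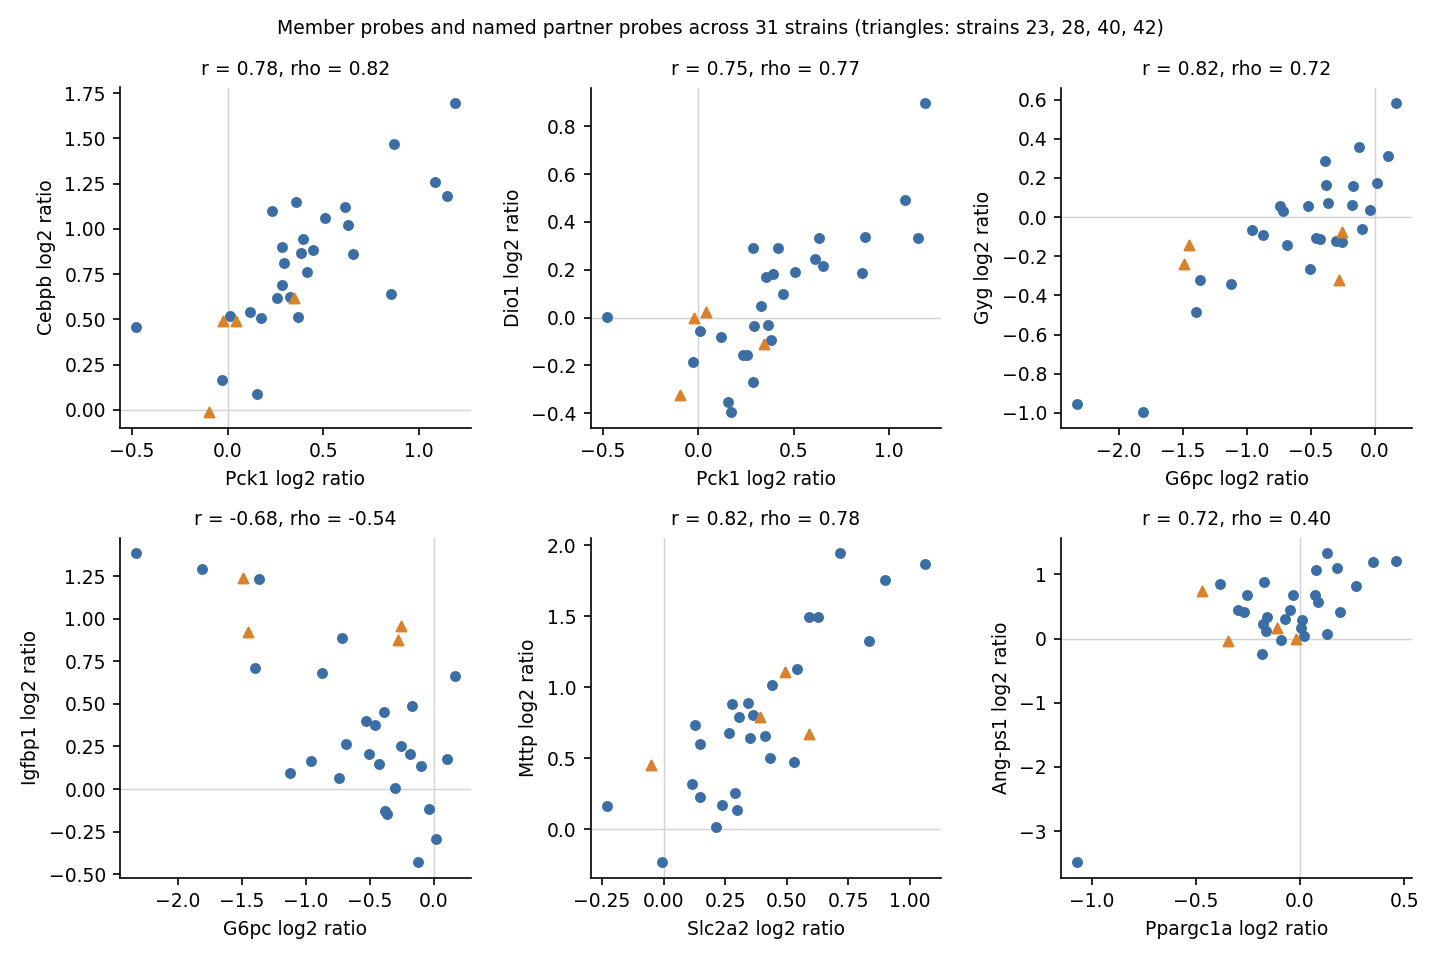
Log2 ratios of a member probe (horizontal axis) and another probe (vertical axis), with 1 point per strain and orange triangles for strains 23, 28, 40 and 42. Pck1 is plotted with Cebpb and Dio1, G6pc with Gyg and Igfbp1, Slc2a2 with Mttp, and Ppargc1a with Ang-ps1. The last relation hangs on strain 18, at -3.49 for Ang-ps1, and the Igfbp1 plot slopes downward.

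G6pc was nearest to Gyg, the gene of glycogenin, which primes glycogen chains. Gyg ran from -0.997 in strain 8 through a median of -0.08 to 0.58 in strain 29, and strains 8 and 29 were also second lowest and highest for G6pc. The r was 0.82 (limma adjusted p = 0.000202), rho was 0.72, and r was 0.68 without strains 38 and 8 and 0.88 without the 4 arrays that stood apart. The next were 1 of 3 probes of Mbp, myelin basic protein (r = 0.70, limma adjusted p = 0.00278), and Dok5, an adaptor of receptor tyrosine kinases (r = 0.69, limma adjusted p = 0.00229). By rank neither passed (rho = 0.54 and 0.52, adjusted p = 0.102 and 0.123 with Benjamini-Hochberg over all probes), while Gyg did (adjusted p = 0.0222). The other probes of Mbp had r of -0.21 and -0.60 with G6pc, so the gene as a whole cannot be said to follow it.

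Slc2a2 was nearest to Mttp, the microsomal transfer protein that loads lipid onto apolipoprotein B, Impa1, an inositol monophosphatase, and Apoc3, an apolipoprotein of triglyceride-rich particles. Mttp ran from -0.23 in strain 12 through a median of 0.68 to 1.94 in strain 2. The r values were 0.82, 0.82 and 0.79 (limma adjusted p = 5.7e-05, 0.000371 and 0.000263), and without strains 22 and 14 they were 0.79, 0.72 and 0.78. The Mttp and Apoc3 probes have adjacent identifiers, 7731 and 7732, and had r = 0.80 with each other. Probes with adjacent identifiers had a mean r of 0.10, against 0.02 for probes 5000 identifiers apart, and the part of this in the likeness was not tested. Strain 5, second highest for Slc2a2 (0.90), was highest for Apoc3 (1.53).

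For Pklr the nearest probes were Fbxw27, Synj2bp and Idh3a (r = 0.76, 0.74 and 0.73, limma adjusted p = 0.000593, 0.00124 and 0.00124), which all lie at every-8th places. With the place correction all 3 still passed (r = 0.79, 0.58 and 0.76, limma adjusted p = 0.000149, 0.0147 and 0.000289). Without the 4 arrays that stood apart Fbxw27 passed (r = 0.66, limma adjusted p = 0.04), while Synj2bp and Idh3a did not (limma adjusted p = 0.128 and 0.0864). Foxo1 was nearest to Bsph2 (r = 0.80, limma adjusted p = 0.00132), which was also lowest in strain 27, at -1.17. Without that strain r was 0.50, and by rank Bsph2 did not pass (rho = 0.51, adjusted p = 0.0596 with Benjamini-Hochberg over all probes). Fli1 and Cep295nl followed without passing (limma adjusted p = 0.0775 and 0.134). Both passed without the 4 arrays that stood apart (limma adjusted p = 0.0194 and 0.0404), and without strain 27 their r was 0.32 and 0.41. The other probe of Fli1 had r = 0.22 with Foxo1 over all strains (limma adjusted p = 0.912). Ppargc1a was nearest to Ang-ps1 (r = 0.72, limma adjusted p = 0.0226), whose value in strain 18 was -3.49. Without strain 18 r was 0.41, and by rank Ang-ps1 did not pass (rho = 0.40, adjusted p = 0.668 with Benjamini-Hochberg over all probes). Ifrd2 and Tenm1, next in line for Ppargc1a, did not pass (limma adjusted p = 0.152 and 0.141). Ifrd2 lies at an every-8th place, and its r of 0.72 was 0.47 with the place correction (limma adjusted p = 0.704). The other probe of Tenm1 had r = -0.09 with Ppargc1a. For Fbp1 the nearest were Cfl2, Cbfa2t2-ps1 and Mmp3 at r between 0.60 and 0.62, none of which passed (limma adjusted p = 0.69, 0.69 and 0.755).

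Other genes of glucose metabolism and its control were followed through 162 probes of 7 lists. Few moved with the 7 genes, and their shares stood near those of all probes. With Pck1, 1 of the 162 passed (Cebpb), or 0.617%, against 0.358% of all probes. With G6pc, Gyg and Dusp1, a phosphatase of MAP kinases (r = 0.64, limma adjusted p = 0.00775), passed positively. Igfbp1, an insulin-repressed binding protein, and 1 of 4 probes of Prkar2a, a regulatory subunit of protein kinase A, passed negatively, so that 2.47% passed against 2.87% of all probes.

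Igfbp1 ran from -0.43 in strain 15 through a median of 0.27 to 1.39 in strain 38, the strain lowest for G6pc. Its r with G6pc was -0.68 (limma adjusted p = 0.00255), rho was -0.54, and r was -0.55 without strains 38 and 8. By rank the smallest size of rho that passed with G6pc was 0.63. Igfbp1, Dusp1 (rho = 0.46) and the Prkar2a probe (rho = -0.60) did not reach it. Igfbp1 and G6pc are both genes that insulin lowers through FOXO1, and over these strains they ran in opposite directions. The passing probe of Prkar2a had r = -0.70 with G6pc (limma adjusted p = 0.00278), while its other probes had r of 0.18, 0.49 and -0.07, so the gene as a whole cannot be said to run against G6pc. With Slc2a2, 1 probe passed, that of the urea cycle enzyme Otc (r = 0.59, limma adjusted p = 0.0427), or 0.617% against 1.12% of all probes. By rank Otc (rho = 0.38) did not reach 0.54, the smallest size of rho that passed with Slc2a2. With Fbp1, Ppargc1a and Foxo1 none of the 162 passed.

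With Pklr, 13 of the 162 probes passed (8.02%, against 7.63% of all probes), 4 positively and 9 negatively. The strongest were 1 of 2 probes of Foxa1, a liver pioneer factor (r = 0.70, limma adjusted p = 0.00304), and Slc25a10, the mitochondrial dicarboxylate carrier (r = -0.67, limma adjusted p = 0.00462). The Slc25a10 and Pklr probes have close identifiers, 10582 and 10579, and the part of this in their relation was not tested. The other probe of Foxa1 did not pass, so the gene as a whole cannot be said to follow Pklr. Cebpb, nearest to Pck1, had r = -0.61 with Pklr (limma adjusted p = 0.00862). Akt1 (r = -0.60, limma adjusted p = 0.0107) and the clock gene Per1 (r = -0.59, limma adjusted p = 0.0122) followed. Without strains 23, 28, 40 and 42 none of the 13 passed. The Foxa1 probe then stood at r = 0.51, Cebpb at -0.54, Slc25a10 at -0.46, Per1 at -0.42 and Akt1 at -0.25.

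Against the reference, 136 of the 175 listed genes were measured, 39 were higher, 52 were lower and 45 did not pass the limma test of the mean. The median of their means was -0.01. Of all 15095 genes, 38.5% were higher and 36.4% lower, with a median of 0.01. With the place correction, 44 of the 136 were higher and 58 lower, beside 5781 and 5372 of all genes. Leaving out strains 23, 28, 40 and 42 gave 47 higher and 55 lower, beside 6247 and 5573 of all genes. The enzymes and carriers of gluconeogenesis had 3 higher, 9 lower and 5 not passed of 17 measured, with a median of -0.12.

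**Figure D5:**
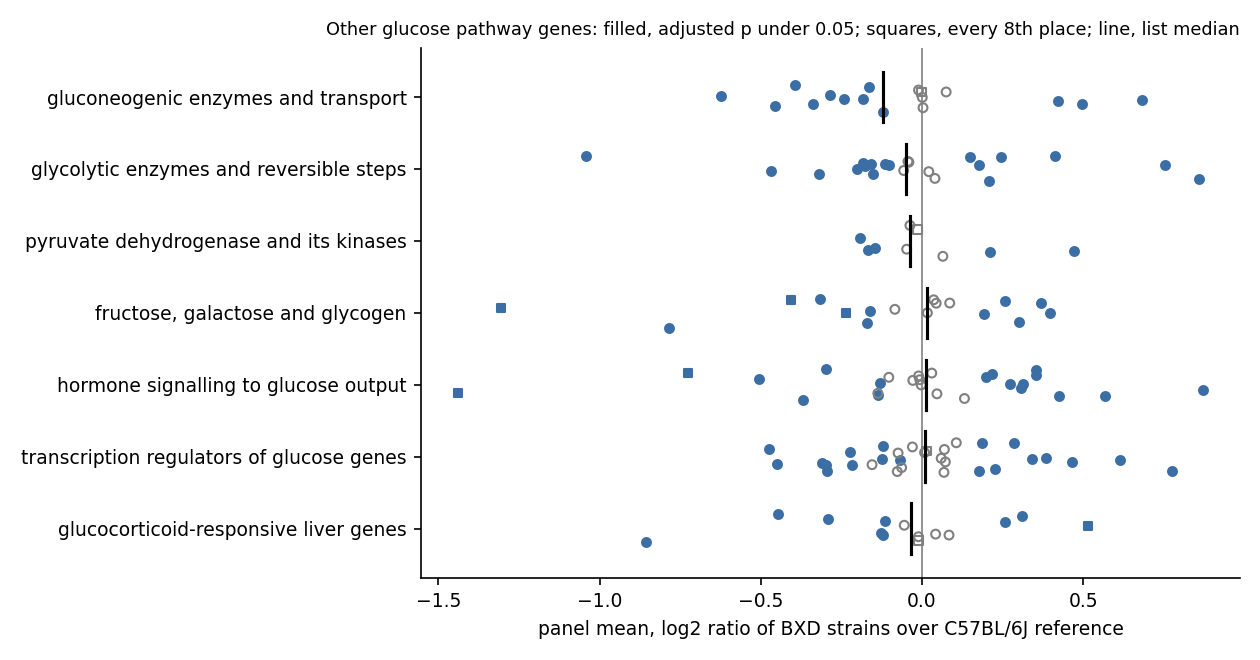
Mean log2 ratio of 31 BXD strains over the C57BL/6J reference (horizontal axis) for the measured genes of each of 7 lists (vertical axis). Filled marks have a limma adjusted p below 0.05, squares lie at every-8th places and the black line is the median of the list. The lists lie on both sides of 0, with medians from -0.12 to 0.02.

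Of the gluconeogenic genes, Mdh2, the mitochondrial malate dehydrogenase, was highest (0.68 ± 0.05, SE, n = 31), followed by Gpt, alanine aminotransferase (0.50), and Slc37a4, the carrier that feeds glucose-6-phosphate to G6pc (0.42). Below the reference were G6pc2, the islet form of the phosphatase (-0.62 ± 0.05, SE), Gpd2, a mitochondrial glycerol-3-phosphate dehydrogenase (-0.46), and Aqp9, the glycerol channel (-0.39). So the carrier Slc37a4 was above and its partner G6pc below the reference. G6pc2 and Aqp9 lay below 0 in 31 of 31 strains.

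The glycolytic list had 7 higher and 10 lower of 22 measured. Pfkp (0.86 ± 0.07, SE, n = 31) and Pfkl (0.75 ± 0.07), both phosphofructokinases, and the enolase Eno3 (0.41) were highest, while Tpi1, triose phosphate isomerase, was lowest (-1.04 ± 0.07, below 0 in 31 of 31 strains), with Eno2 (-0.47) and Aldoc (-0.32). Pyruvate dehydrogenase genes and their kinases gave 2 higher and 3 lower of 9, with Pdk2, the kinase that blocks the complex, at 0.47 and the core subunit Dlat at -0.19.

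Sugar and glycogen genes gave 5 higher and 7 lower of 17, among them Ppp1r3d, a glycogen-targeting phosphatase subunit (0.40), Galt (0.37), Pygm, muscle glycogen phosphorylase (-0.78), and Gbe1, the branching enzyme (-1.31). Gbe1 lies at an every-8th place and stood at -0.73 with the place correction. With that correction the list had 6 higher and 6 lower. Epm2a, also at such a place, went from -0.24 to 0.34 and passed in both directions (limma adjusted p = 6.13e-07 and 3.23e-10). Hormone signalling genes gave 10 higher and 7 lower of 26. The protein kinase A catalytic subunit Prkaca stood at 0.87, Prkag1, a subunit of the energy sensor AMPK, at 0.57 and Igfbp1 at 0.42, and the insulin receptor Insr at -0.50. Pdpk1 (-1.44) and Pik3r1 (-0.73) lie at every-8th places, and with the place correction they were -0.86 and -0.15, the second no longer passing (limma adjusted p = 0.063).

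Transcription regulators gave 9 higher and 10 lower of 31. Cebpb was highest (0.77 ± 0.07, SE, n = 31), above 0 in 30 of 31 strains, with the acetyltransferase Kat2a, known to oppose PGC-1α, at 0.61 and Atf4 at 0.47. Crtc2, the CREB coactivator of fasting, was lowest (-0.48 ± 0.10, SE), with Atf2 at -0.45 and Klf15 at -0.31. Liver genes known to respond to glucocorticoids gave 3 higher and 6 lower of 14, Ass1 (0.51, at an every-8th place, and 1.09 with the place correction), Hpd (0.31) and Otc (0.26) among the first and Cps1 (-0.86), Tdo2 (-0.45) and Sgk1 (-0.29) among the second.

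Scores of cell type marker lists, each the mean log2 ratio of its measured genes after centring each gene on its mean over strains, moved with some of the 7 genes, and their part in the results was not tested. The macrophage and Kupffer cell score (9 of 13 genes measured, from -0.57 in strain 40 to 0.27 in strain 39) had r = -0.66 with Pklr and 0.41 with Pck1. The erythroid score (5 of 8 genes, from -0.29 in strain 13 to 0.27 in strain 15) had r = -0.52 with Pklr, which red cells also use, and 0.52 with Pck1. The adipose score (8 of 10 genes, from -0.23 in strain 33 to 0.40 in strain 28) had r = -0.48 with Pck1 and 0.41 with Pklr. The exocrine pancreas score (14 of 15 genes, from -0.32 in strain 38 to 0.33 in strain 24) had r = 0.63 with G6pc, and strain 38 was lowest for both. The hepatocyte score had r between -0.20 and 0.25 with the 7 genes, and that of kidney and intestine, organs that also make glucose, had r = 0.49 with G6pc. These correlations over strains are descriptions, with no p, and the scores come from the same arrays. Strain 40, lowest for the macrophage score, and strain 28, highest for the adipose score, are among the arrays that stood apart. The correlations were not computed without those arrays. Against the reference, the macrophage list had 6 genes higher and 0 lower, the pancreas list 5 and 5, and the adipose list 1 and 4. The erythroid list had 2 higher and 1 lower, and the kidney and intestine list 4 and 2 of 8 measured. Of all genes, 38.5% were higher and 36.4% lower.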

How the data were processed

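The 31 strains were hybridised on 31 arrays against 1 C57BL/6J pool, with 20 ug of RNA on each side. The authors deposited normalized log ratios, taken here as log2, for which the submitters' processing notes name limma and R 2.0.0. The sources used here do not give the background correction, the normalization, the log base or the direction. Sorted values of each array differed from those of the first array by at most 0.000256, so all share nearly 1 distribution (median -0.0015, SD 0.51). No intensities were used, and precision is limited by the number of arrays. Of 23040 features, 1275 were empty on every array. Of the 21765 probes, 16642 had 1 gene, 134 several and 4989 none. For 15964 of them the name was taken from RefSeq (GRCm38.p6) by gene ID, and its promoters were matched by symbol.

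Means were tested with limma 3.58.1 in R 4.3.3 (intercept, lmFit, eBayes, two-sided, Benjamini-Hochberg over all probes, threshold 0.05), and relations with a slope on the gene's values. The tests were tried on simulated data. For lists, probes of a gene were averaged. Genes named were the members, the 3 probes most like each by r, and up to 3 highest and 3 lowest passing means of a list. Dusp1, Prkar2a, Epm2a and the probes passing with Pklr were chosen after their values were seen. The members and lists were chosen with earlier results of these data known. Alternatives were the place correction, leaving out strains 23, 28, 40 and 42 or the 2 strains farthest from a median, a mean beyond 0.2 (treat), robust regression, median centring, ranks, removal of the first principal component (29.2% of variance) and each probe of a gene on its own. Leaving out strain 27 or 18 was chosen after seeing the data.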

Additional observations from a re-analysis of the deposited data

How the results depend on the processing

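Of the means and correlations of the members, most kept their direction and side of the threshold, and the cause of the exceptions below was not tested. The mean of Fbp1 was -0.080 with the place correction and -0.078 with that correction and without strains 23, 28, 40 and 42 (limma adjusted p = 0.0672 and 0.0917), and as a test of a mean beyond 0.2 both Fbp1 (-0.10) and Foxo1 (0.31) no longer passed, so that 3 members passed in place of 5 and 46 pathway genes in place of 91. Ppargc1a passed with the place correction (-0.14) and with both changes (-0.12). Pklr turned to -0.019 without the 4 strains and -0.090 with both, and Phkg2, at an every-8th place, to 0.17 with the place correction. Of the pairs, 1 in place of 2 passed a fit without the 4 strains, with both changes and by rank, Pck1 with Pklr being the pair lost (smaller adjusted p = 0.142, 0.165 and 0.0666). Without the 2 farthest strains Fbp1 with Slc2a2 was lost (0.203) and Pklr with Ppargc1a gained (0.0448), and Pck1 with Pklr passed both fits there (0.0288 and 0.012) and with the first principal component removed (0.0395 and 0.0246). Pairs of r near 0 changed sign: Pck1 with Fbp1 to 0.0074 without the 4 strains and 0.0022 with both, Slc2a2 with Pklr to 0.0032 by rank, Pklr with Foxo1 to -0.011 with the place correction, -0.17 by rank and -0.24 without strain 27, Fbp1 with Foxo1 to 0.41 by rank and 0.41 without strain 27, and Ppargc1a with Foxo1 to -0.039 without the 4 strains, -0.043 with both, -0.087 without strains 18 and 38 and -0.11 without strain 18. Counts of probes that varied with a gene moved most. Without the 4 strains they were 1413 for G6pc, 1 for Fbp1, 1295 for Slc2a2, 51 for Pklr and 13 for Foxo1. With the place correction as well they were 1356 for G6pc, 1 for Fbp1, 1213 for Slc2a2 and 40 for Pklr, and with the place correction alone 1 for Fbp1. With the first principal component removed they were 302 for Pck1, 1 for Fbp1, 465 for Slc2a2, 590 for Pklr and 2 for Ppargc1a. By rank they were 306 for Pck1, 69 for G6pc, 709 for Slc2a2, 436 for Pklr, 949 for Foxo1 and 0 for Ppargc1a, where 1505 had an unadjusted p below 0.05. Robust regression and median centring changed no call of a member mean. No paired analysis was possible because the strains form a single group. Signal over background is unknown, and 1 array per strain leaves the error within a strain unmeasured.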
